A study of Mus musculus with 2 samples.

Results

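Heat shock proteins and their DNAJ co-chaperones are the protein-folding machinery described here, in cardiac neural crest cells sorted from mouse hearts with and without the membrane metalloprotease gene Adam19. Members were taken by symbol: single-gene transcript clusters whose symbol starts with Hspa, Hspb, Hsp90, Dnaja, Dnajb or Dnajc, plus Hspd1, Hspe1 and Hsph1, with the brightest cluster standing for a gene. The rule gave 72 of 19938 measured genes, 27 of them named Hsp and 45 named Dnaj. It takes names and not functions, so it also holds Hspbap1, Hspbp1 and Hspb11, whose products are not heat shock chaperones themselves. Hsp90ab1 is not analysed here, and Hspa1b was measured only together with Hspa1a.

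The mutant embryos were Adam19-/-; Wnt1-Cre; R26tdTomato/+ and the controls Adam19+/+; Wnt1-Cre; R26tdTomato/+, all on a C57BL/6 background at stage E14.5. Both genotypes thus carried the Cre driver and the red reporter, which marks the descendants of cells that once expressed Wnt1-Cre and not a single cell type. Hearts were dissociated with collagenase, red cells were sorted, and their total RNA was measured on Affymetrix Mouse Gene 1.0 ST arrays, 1 per genotype. The labels do not say how many embryos were pooled per array. A single array for each genotype leaves no replicate, so no test was possible, and every difference is that between these 2 samples. Values are the authors' deposited log2 signals, and differences are Adam19-/- minus Adam19+/+. The median difference of the 10122 genes above an expression floor of 8.01 (the median of all genes' mean signal) was 0.04, and the central 95% of differences ran from -0.20 to 0.30. Adam19 itself had a log2 signal of 9.77 in Adam19-/- cells, against 11.62 in Adam19+/+ cells. On the same arrays all 10 listed leukocyte markers were higher in Adam19-/- cells, by a median of 0.35. Single markers spanned 5.65 to 9.21 in Adam19-/- cells and 5.63 to 8.53 in Adam19+/+ cells. Of all genes above the floor 65.2% were higher, and 4 of these 10 markers passed that floor. The part of other cell types in the results below was not tested, and in sorted bulk RNA fewer cells of a type and less RNA per cell cannot be told apart.

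HSP70 proteins (the Hspa genes) bind exposed hydrophobic stretches of unfolded proteins and release them in an ATP-driven cycle. DNAJ proteins carry a J domain that delivers substrates to HSP70 and triggers its ATPase, and nucleotide exchange factors such as the HSP110 proteins reset the cycle. HSP90 acts later on near-native clients, the small heat shock proteins (Hspb) hold unfolded proteins without ATP, and separate sets of these proteins serve the cytosol, the endoplasmic reticulum (ER) and the mitochondria. The cytosolic inducible genes are switched on by heat shock factor HSF1, and several ER members by the unfolded protein response.

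Few members of the family differed by 1.2-fold or more, as was also true of all genes. Of the 58 members above the floor, 1 was at least 1.2-fold higher in Adam19-/- cells and 0 were at least 1.2-fold lower, against 4.06% and 1.13% of all genes above the floor. No member reached 1.5-fold in either direction, a difference that 0.148% of all genes reached upward and 0.0889% downward. Of these members 28 were lower, 29 higher and 1 equal, whereas 33.7% of all genes were lower and 65.2% were higher. Their median difference was 0.00, and it turned slightly negative, to between -0.039 and -0.003, under 5 of 8 processing alternatives. The other 14 members lay under the floor on both arrays. They include all 8 members assigned to germ cells, such as Dnajb8 and Dnajb13, whose products serve spermatids and sperm tails.

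**Figure D1:**
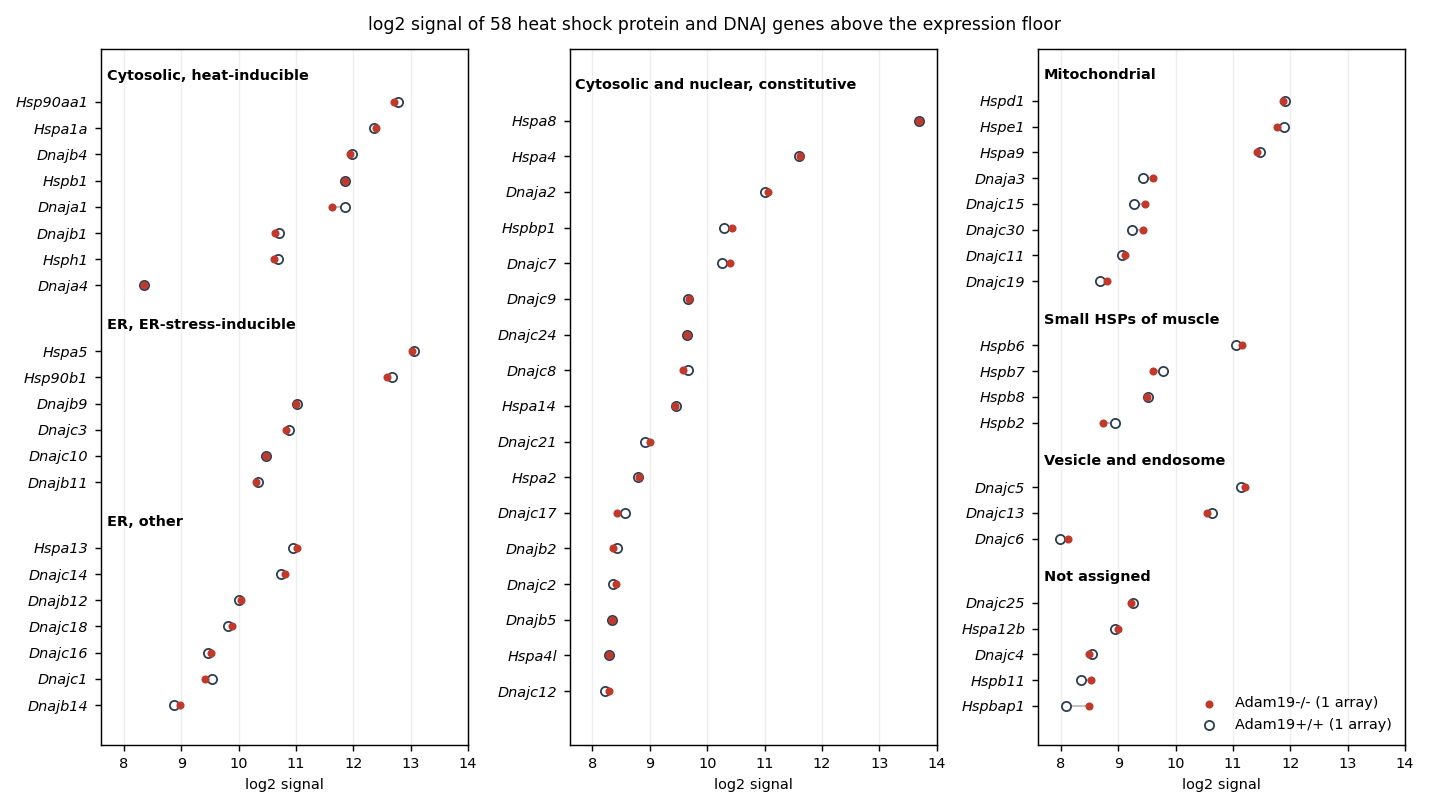
log2 signal (horizontal axis) of each of the 58 members above the floor in Adam19-/- cells (red, 1 array) and Adam19+/+ cells (open, 1 array), grouped by compartment and induction. The symbols of most genes overlap, and the pair of Hspbap1 stands furthest apart, at 8.50 and 8.10.

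Most heat-inducible cytosolic members gave high signals in both samples and were slightly lower in Adam19-/- cells by their brightest clusters. Of 8 such members, 7 were lower and 1 was higher. Of all genes above the floor 33.7% were lower, and of the 1994 genes of highest mean signal 40.8%. The 7 include Dnaja1, whose clusters differed in opposite directions. For Dnaja1, Hsp90aa1 and Hspb1 the brightest cluster sat among clusters of another chromosome, as described below. The group's median difference of -0.05 ranged from -0.09 to -0.02 over the 8 alternatives. Among these, using no floor, adding a constant to the linear signal and centring on the median could not have turned it positive. Neither -0.05 nor -0.02 exceeded in size the median gap of 0.05 between clusters of a gene. The median level of the 8 members stood at percentile 96.4 of all genes. Probe sets of different genes differ in affinity, so levels place a gene among the others only roughly.

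Hspa1a, the main stress-induced HSP70, had a log2 signal of 12.39 in Adam19-/- cells and 12.35 in Adam19+/+ cells, the only increase of the group. A separate cluster that matches both Hspa1a and its near-identical copy Hspa1b read 12.82 in both. These strongly inducible HSP70 genes therefore had nearly the same signal in both samples. Hsp90aa1, the inducible cytosolic HSP90, was at 12.71 in Adam19-/- cells against 12.78 in Adam19+/+ cells. Hsph1, an HSP110 exchange factor, was at 10.61 in Adam19-/- cells against 10.68 in Adam19+/+ cells. Dnajb1, the classical heat-induced partner of cytosolic HSP70, was at 10.63 in Adam19-/- cells against 10.70 in Adam19+/+ cells. These 3 genes were each lower by 0.07 to 0.08, inside the central 95% of all genes. Hspb1, an actin-protecting small heat shock protein, was at 11.84 in Adam19-/- cells against 11.85 in Adam19+/+ cells. Dnajb4 and Dnaja4 also differed by under 0.05.

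Dnaja1, a co-chaperone that cooperates with cytosolic HSP70 in folding and import, had the lowest difference of the 58 members above the floor by its brightest cluster. That cluster read 11.63 in Adam19-/- cells against 11.85 in Adam19+/+ cells, a difference of -0.22. A second cluster of Dnaja1 read 9.85 in Adam19-/- cells against 9.62 in Adam19+/+ cells, a difference of 0.23 in the other direction. The one further cluster, shared with the microRNA gene Mir207, differed by -0.03. No direction can be given for Dnaja1 from these values. The gap of 0.45 between its first and second cluster was reached or passed by 2 of the 583 genes with several clusters above the floor (itself included), and the median gap was 0.05.

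The clusters of Dnaja1 also differ in where they sit on the array's list. Cluster numbers run in genome order, so the named clusters on either side show the chromosome of a cluster. Around the brightest Dnaja1 cluster, 17 of the nearest 20 named clusters belonged to chromosome 5, whereas Dnaja1 lies on chromosome 4, and around the second cluster 19 of 20 belonged to chromosome 4. The same held for Hsp90aa1, Hspa8, Hspb1, Hspd1 and Hspe1, whose brightest cluster in each case sat among clusters of another chromosome. In all, 6 of 72 members (8.33%) had such a brightest cluster, against 318 of 19855 genes with a known chromosome (1.60%). Taking only clusters among neighbours of the gene's own chromosome, an alternative added after the values were seen, left 6 of 8 inducible members lower, with a median of -0.02. Under it Hspd1 was higher by 0.03, Hspe1 lower at -0.06 and Hspa8 lower at -0.09.

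**Figure D2:**
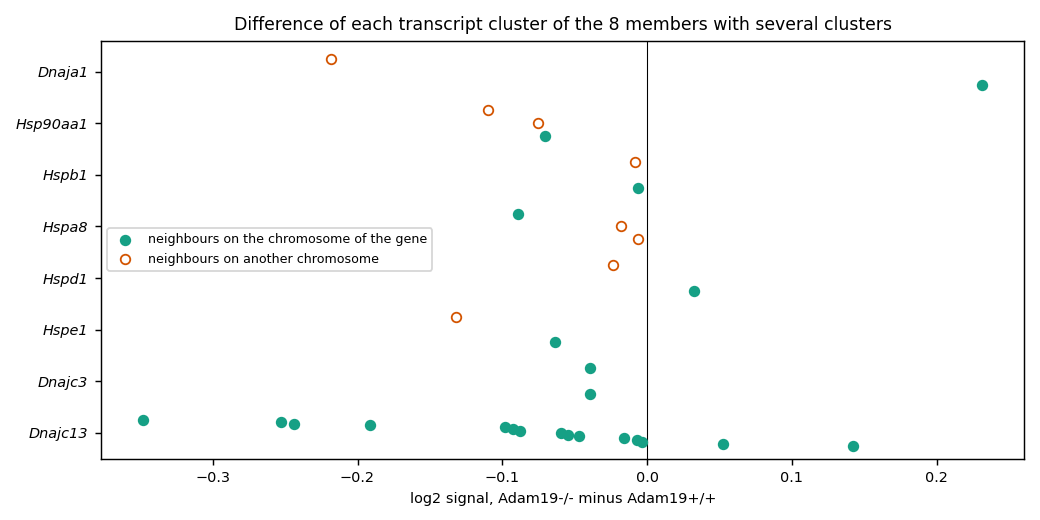
Difference in log2 signal (Adam19-/- minus Adam19+/+, horizontal axis) of every single-gene cluster of the 8 members with several clusters; filled points sit among clusters of the gene's own chromosome, open points among those of another. The 2 clusters of Dnaja1 lie on opposite sides of 0, at -0.22 and 0.23, while all 3 of Hsp90aa1 lie between -0.11 and -0.07.

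The immediate early genes, which like the inducible chaperones respond to stress and cell dissociation, were measured beside them. Of 18 above the floor, 6 were higher, 11 lower and 1 equal in Adam19-/- cells, and their median was -0.02. Ier2 was higher by 0.22 and Jund by 0.16, and Egr2 lower at -0.21. Fos was at 11.92 in Adam19-/- cells against 11.94 in Adam19+/+ cells, and Atf3 at 11.39 and 11.41. Both collagenase-digested samples thus had similar signals for the inducible chaperones and for these factors; the part of dissociation in either level was not tested.

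Constitutive cytosolic and nuclear members showed no common direction. Of 17 above the floor, 10 were higher, 6 lower and 1 equal, whereas 65.2% of all genes were higher and 33.7% lower. Their median of 0.01 became -0.02 after quantile normalisation and -0.03 after centring on the median or on a lowess curve. Hspa8, the constitutive HSP70 of the cytosol, had the highest signal of the family, 13.69 in Adam19-/- cells against 13.70 in Adam19+/+ cells, and its 3 clusters differed by -0.09 to -0.01. The HSP110 gene Hspa4 was at 11.62 in Adam19-/- cells against 11.59 in Adam19+/+ cells. Among the co-chaperones, the largest increases were those of Hspbp1, an exchange factor for HSP70, and Dnajc7, which bridges HSP70 and HSP90. Hspbp1 was at 10.44 in Adam19-/- cells against 10.30 in Adam19+/+ cells. Dnajc7 was at 10.39 in Adam19-/- cells against 10.26 in Adam19+/+ cells. The lowest differences belonged to nuclear J proteins, Dnajc17 at -0.13 and the spliceosome-associated Dnajc8 at -0.09, while Dnajc9, a histone chaperone, was at 0.02. Dnajc24, which serves diphthamide synthesis, had equal values on both arrays. Dnajc12, a co-chaperone of aromatic amino acid hydroxylases such as tyrosine hydroxylase, was at 8.29 in Adam19-/- cells against 8.21 in Adam19+/+ cells. Th, the gene of tyrosine hydroxylase, was at 10.03 in Adam19-/- cells against 9.58 in Adam19+/+ cells. That was the largest increase among the 7 measured markers of autonomic neurons. This list was split, 4 genes lying above 0 and 3 below it, among them Prph at -0.11 and Chrna3 at -0.10. The middle value of the list was 0.004. Any link between Dnajc12 and Th was not tested.

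Dnajb6, a suppressor of protein aggregation, was under the floor by its only single-gene cluster, at 6.74 in Adam19-/- cells against 6.98 in Adam19+/+ cells. A further 4 clusters annotated to both Dnajb6 and the predicted gene Gm4247 read up to 12.23 in Adam19-/- cells and up to 12.32 in Adam19+/+ cells, with differences of -0.08 to -0.09. The signal of Dnajb6 in these cells therefore depends on which clusters are read, by several log2 units. The 4 shared clusters sat among clusters of 4 different chromosomes with nearly the same difference, and were not counted as independent.

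The ER members were grouped by their link to ER stress. Of the 6 that the unfolded protein response induces, 5 were lower and 1 was higher, and the median was -0.03. Of all genes above the floor 33.7% were lower. These 6 were also brighter as a group, at mean signals of 10.31 to 13.03, than the other ER members, at 8.92 to 10.98. All 6 lay below the median difference of all genes. The group median was negative under all 8 alternatives, but several alternatives leave these values unchanged or cannot turn a negative median positive. Hspa5 (BiP), the HSP70 of the ER lumen, was at 13.02 in Adam19-/- cells against 13.05 in Adam19+/+ cells. Hsp90b1 (GRP94), the HSP90 of the ER, was at 12.59 in Adam19-/- cells against 12.67 in Adam19+/+ cells, the largest decrease of the group at -0.08. The lumenal J proteins Dnajb9, Dnajb11 and Dnajc3 differed by -0.02 to -0.04, and the disulfide reductase Dnajc10 by 0.01. Apart from Hsp90b1, these differences are smaller than the median gap of 0.05 between clusters of a gene.

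Of the 7 other ER members, 6 were higher and 1 was lower, and the median was 0.06, close to the 0.04 of all genes. Among all genes above the floor 65.2% were higher. Dnajb14, an ER-membrane J protein, was at 8.98 in Adam19-/- cells against 8.87 in Adam19+/+ cells. Dnajc1, a membrane J protein that contacts the ribosome, was the lower one, at 9.41 in Adam19-/- cells against 9.53 in Adam19+/+ cells. Taken as a whole, the 13 ER members had a median of 0.01, which turned to -0.01 with the higher floor and after quantile normalisation, and to -0.03 and -0.02 after centring on the median and on a lowess curve.

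The ER partners and unfolded protein response genes showed no common direction, with 14 of 23 higher, 9 lower and a median of 0.02. Of all genes above the floor 65.2% were higher, and 17 of the 23 lay below the median difference of all genes. The largest differences were those of the stress sensor Ern1 (IRE1) at 0.17, of the response factor Atf4 at -0.14 and of the Atf4 target Ddit3 (CHOP) at -0.13. The splicing target of IRE1, Xbp1, was at 12.09 in Adam19-/- cells against 12.06 in Adam19+/+ cells.

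**Figure D3:**
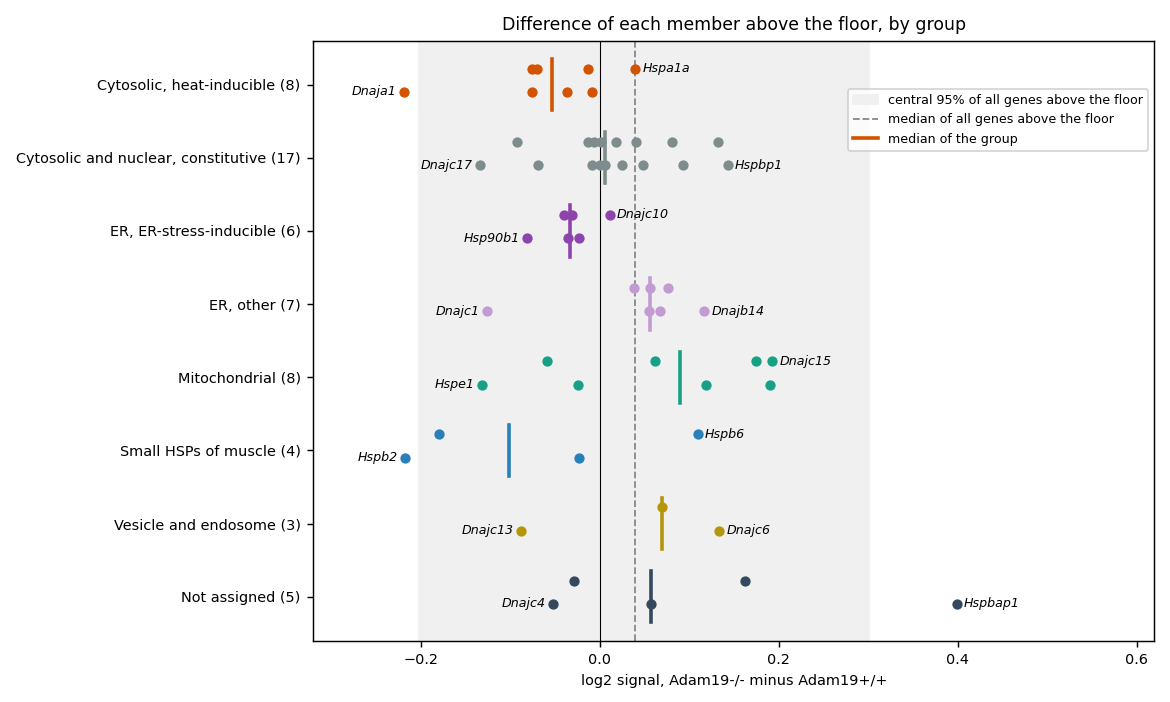
Difference in log2 signal (Adam19-/- minus Adam19+/+, horizontal axis) of each member above the floor, by group, with the number of members in brackets and a bar at the group median. Of the 8 heat-inducible cytosolic members 7 lie left of 0 by their brightest clusters, Dnaja1 among them, and the mitochondrial group spreads from -0.13 to 0.19.

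The promoters of the members were searched for the elements through which heat shock factors and the unfolded protein response act. RefSeq windows of the GRCm38.p6 assembly, from 250 bases before to 50 after a start site, were given for 59 of the 72 members. A heat shock element was searched as GAANNTTCNNGAA or its reverse complement TTCNNGAANNTTC, which holds 3 alternating units. It was found for 4 of the 59 members (6.78%), Hspd1, Hspe1, Hsph1 and Dnajb6, and for 0.662% of the 27025 genes with a window. Of the 7 heat-inducible cytosolic members with a window, 1 held it. With 2 units (GAANNTTC or TTCNNGAA, a looser form added after the first search, which every longer match contains), 15 of the 59 members matched (25.4%), against 17.0% of all genes. These included 6 of 7 heat-inducible cytosolic members and 1 of 15 constitutive ones. Dnajb1 was the inducible member with no match in its windows. The ER stress element, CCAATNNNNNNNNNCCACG on either strand, was found for Hspa5, Hsp90b1 and Dnajc3, that is 3 of 59 members, and for 0.137% of all genes.

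The stretches before the start site are shown for an example of each element, 5′ to 3′ on the gene's strand in GRCm38.p6, with the matches in capitals. Hspe1 is shown because it shares its promoter with Hspd1, which is read in the other direction from the same element; its stretch is chr1:55087898-55088147 (+ strand), and overlapping matches are run together. Hspb1 (chr5:135887669-135887918, + strand) and Hspa1a (chr17:34972157-34972406, - strand) show the 2-unit form, and Hspa5 (chr2:34771840-34772089, + strand) and Hsp90b1 (chr10:86705445-86705694, - strand) the ER stress element, which Hsp90b1 holds on both strands.
Hspe1: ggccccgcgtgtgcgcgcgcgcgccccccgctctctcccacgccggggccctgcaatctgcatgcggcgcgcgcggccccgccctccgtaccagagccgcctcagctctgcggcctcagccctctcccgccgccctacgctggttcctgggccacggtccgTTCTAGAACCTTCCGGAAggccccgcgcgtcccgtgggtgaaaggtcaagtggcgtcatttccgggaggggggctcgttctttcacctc
Hspb1: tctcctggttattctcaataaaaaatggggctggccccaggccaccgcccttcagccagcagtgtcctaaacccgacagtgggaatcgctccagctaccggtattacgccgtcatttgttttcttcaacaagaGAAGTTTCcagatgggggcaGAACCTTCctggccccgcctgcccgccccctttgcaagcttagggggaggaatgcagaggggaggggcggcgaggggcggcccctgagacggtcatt
Hspa1a: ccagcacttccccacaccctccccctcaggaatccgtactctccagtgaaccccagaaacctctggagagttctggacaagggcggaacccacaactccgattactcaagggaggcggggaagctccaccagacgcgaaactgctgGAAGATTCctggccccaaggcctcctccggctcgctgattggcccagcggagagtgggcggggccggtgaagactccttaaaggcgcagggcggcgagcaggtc
Hspa5: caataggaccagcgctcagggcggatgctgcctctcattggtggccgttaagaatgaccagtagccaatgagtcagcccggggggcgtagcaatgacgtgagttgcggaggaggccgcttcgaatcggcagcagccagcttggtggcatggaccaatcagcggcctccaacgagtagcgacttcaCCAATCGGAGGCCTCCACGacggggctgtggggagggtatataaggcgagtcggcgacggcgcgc
Hsp90b1: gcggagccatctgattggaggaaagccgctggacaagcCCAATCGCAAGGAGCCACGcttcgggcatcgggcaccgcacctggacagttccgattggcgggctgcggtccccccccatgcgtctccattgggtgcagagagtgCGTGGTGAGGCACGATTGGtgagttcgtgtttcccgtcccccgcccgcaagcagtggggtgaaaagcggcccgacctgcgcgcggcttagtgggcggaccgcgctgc

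The 3 genes with an ER stress element differed by -0.03 (Hspa5), -0.08 (Hsp90b1) and -0.04 (Dnajc3). Of the 4 genes with a 3-unit heat shock element, the 3 above the floor differed by -0.02 (Hspd1), -0.13 (Hspe1) and -0.08 (Hsph1) by their brightest clusters. By the clusters among neighbours of the gene's own chromosome, Hspd1 was higher by 0.03 and Hspe1 lower at -0.06. Genes with the 2-unit form differed in both directions. By brightest clusters, the 6 heat-inducible cytosolic ones ran from -0.22 to 0.04, and the 2 small heat shock proteins above the floor were at -0.02 and 0.11. A match describes the letters of a window and shows no binding, and other forms of the elements were not searched.

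The mitochondrial members divided into matrix chaperones and J proteins. Hspd1 (HSP60) and Hspe1 (HSP10) form the folding chamber of the matrix, and Hspa9 (mortalin) is the HSP70 that pulls in and folds imported proteins. Hspe1 was at 11.76 in Adam19-/- cells against 11.89 in Adam19+/+ cells, a difference of -0.13. Hspa9 was at 11.42 in Adam19-/- cells against 11.47 in Adam19+/+ cells, and Hspd1 at 11.87 and 11.90. All 3 were thus lower by their brightest clusters, with a median of -0.06, while the other cluster of Hspd1 was higher by 0.03.

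All 5 mitochondrial J proteins were higher, with a median of 0.17 and a range of 0.06 to 0.19, and 65.2% of all genes were higher. Dnajc15, a J protein of the inner membrane's import motor, was at 9.47 in Adam19-/- cells against 9.27 in Adam19+/+ cells. Dnajc30, which is linked to respiratory chain function, was at 9.42 in Adam19-/- cells against 9.23 in Adam19+/+ cells. Dnaja3 (TID1), the J partner of mortalin, was at 9.61 in Adam19-/- cells against 9.44 in Adam19+/+ cells. Among the 58 members above the floor, those 3 had the largest increases after Hspbap1. Dnajc19, a further J protein of the import motor, was higher by 0.12, and Dnajc11, of the complex that shapes the cristae, by 0.06. The split into chaperones and J proteins was made after the values were seen, and the J proteins were dimmer, at mean signals of 8.74 to 9.53, than the chaperones, at 11.44 to 11.89.

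Level and difference were related across the array. Among genes with a mean signal between 9 and 10 the median difference was 0.05, and among those above 12 it was 0.01. Over the 58 members Spearman's rho between mean signal and difference was -0.30, against -0.14 over the 10122 genes, as a description of points that share 2 arrays. After centring on a lowess curve, the mitochondrial J proteins had a median of 0.13 and the matrix chaperones, by brightest clusters, one of -0.08. That split was made after the values were seen, and the part of signal level in it was not tested. In the top 10% of mean signal, 40.8% of 1994 genes were lower in Adam19-/- cells, and 11 of the 17 members there were.

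**Figure D4:**
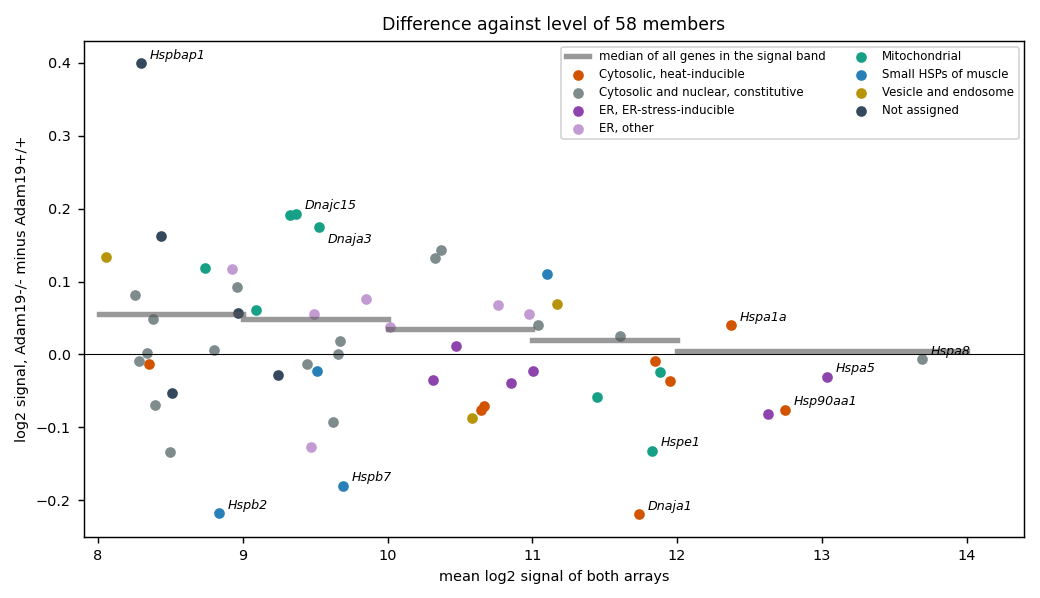
Difference in log2 signal (Adam19-/- minus Adam19+/+, vertical axis) against mean log2 signal of both arrays (horizontal axis) for the 58 members, coloured by group, with grey bars at the median of all genes in a signal band. The bars fall with signal, at 0.05 between 9 and 10 and 0.01 above 12, and the mitochondrial J proteins Dnajc15 and Dnaja3 lie above them and Hspe1 below.

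Among the mitochondrial partners fixed as a list, 12 of 13 above the floor were higher and 1 was lower, against 65.2% of all genes above 0. Their median was 0.06, against 0.04 for all genes, and 6 of the 13 lay below that median of all genes. Grpel2, a nucleotide exchange factor of mortalin, was at 10.19 in Adam19-/- cells against 9.92 in Adam19+/+ cells, higher by 0.27. Hscb, a J protein of iron-sulfur cluster assembly whose symbol lies outside the name rule, was at 8.04 in Adam19-/- cells against 7.78 in Adam19+/+ cells, and passed the floor through the Adam19-/- array alone. Atf5, a factor of the mitochondrial stress response, was higher by 0.19. Trap1, the HSP90 of mitochondria, was the lower one, at 10.37 in Adam19-/- cells against 10.46 in Adam19+/+ cells. On the same arrays 9 of 10 hypoxia genes above the floor were higher, against 65.2% of all genes, with a median of 0.30. Their differences ran from -0.11 (Ndrg1) to 0.80 (Bnip3, a mitophagy receptor). Bnip3 was at 10.18 in Adam19-/- cells against 9.37 in Adam19+/+ cells. Whether the hypoxia genes are linked to the mitochondrial values was not tested.

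The small heat shock proteins of muscle did not share a direction. Hspb2, found mainly in striated muscle, was at 8.72 in Adam19-/- cells against 8.94 in Adam19+/+ cells, a difference of -0.22. Hspb7, a cardiac and vascular member that binds filamin, was at 9.60 in Adam19-/- cells against 9.78 in Adam19+/+ cells, a difference of -0.18. Hspb6 (HSP20), a phosphoprotein of smooth muscle relaxation, was higher, at 11.16 in Adam19-/- cells against 11.05 in Adam19+/+ cells. Hspb8, which works with BAG3 in chaperone-assisted autophagy, was at 9.50 in Adam19-/- cells against 9.52 in Adam19+/+ cells, and Hspb3 lay under the floor at 6.33 and 6.29. Cryab, the small heat shock protein alpha B-crystallin, was at 11.88 in Adam19-/- cells against 11.96 in Adam19+/+ cells.

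Markers of both muscle types were measured beside these genes. All 7 smooth muscle markers were lower in Adam19-/- cells, with a mean log2 signal of 11.30, against 11.44 in Adam19+/+ cells, and Acta2 at 13.62 and 13.74. Of 10 cardiomyocyte markers 7 were higher and 3 lower, with a mean log2 signal of 9.36 in Adam19-/- cells, against 9.16 in Adam19+/+ cells. Among all genes above the floor 33.7% were lower and 65.2% higher. Single cardiomyocyte markers spanned 7.99 to 11.79 in Adam19-/- and 7.64 to 11.70 in Adam19+/+ cells. Of the small heat shock proteins, Hspb2 and Hspb7 were lower, at -0.22 and -0.18, whereas Hspb6 was higher by 0.11. The part of either cell type in the small heat shock proteins was not tested.

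Vesicle and endosome members differed in both directions. Dnajc5, the cysteine string protein of synaptic vesicles, was at 11.21 in Adam19-/- cells against 11.14 in Adam19+/+ cells. Dnajc6, the neuronal auxilin that uncoats clathrin, was at 8.12 in Adam19-/- cells against 7.99 in Adam19+/+ cells and so passed the floor on the Adam19-/- array alone. Dnajc13, an endosomal J protein, has 15 clusters, of which 13 were lower and 2 higher, from -0.35 to 0.14 with a median of -0.06.

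Hspbap1, which encodes a protein that binds HSPB1 and belongs to the JmjC-domain family, was the single member above the floor past 1.2-fold. It was at 8.50 in Adam19-/- cells against 8.10 in Adam19+/+ cells, 0.40 higher, or 1.32-fold. Hspb11 (IFT25), a component of intraflagellar transport, was at 8.52 in Adam19-/- cells against 8.36 in Adam19+/+ cells. Hspa12b, an atypical HSP70 of endothelium, was higher by 0.06.

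The wider cytosolic machinery was similar between the genotypes. Of 21 partners and heat shock factors, 15 were higher and 6 lower, and the median was 0.02. Among all genes above the floor 65.2% were higher, and their median was 0.04. Bag2, an exchange factor and inhibitor of the CHIP ubiquitin ligase, was at 8.59 in Adam19-/- cells against 8.31 in Adam19+/+ cells, 1.22-fold higher. Bag4 was higher by 0.22 and Unc45a, a myosin chaperone, by 0.18. Bag3, an HSF1 target, was at 10.77 in Adam19-/- cells against 10.75 in Adam19+/+ cells, and Hsf2 at 9.34 and 9.40. Of the 8 subunits of the TRiC chaperonin, which folds actin and tubulin, 6 were higher and 2 lower, against the same 65.2% higher. Their differences ran from -0.03 to 0.10 around a median of 0.06. The largest TRiC differences were those of Cct8 at 0.10, Cct4 at 0.08 and Cct2 at 0.07.

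**Figure D5:**
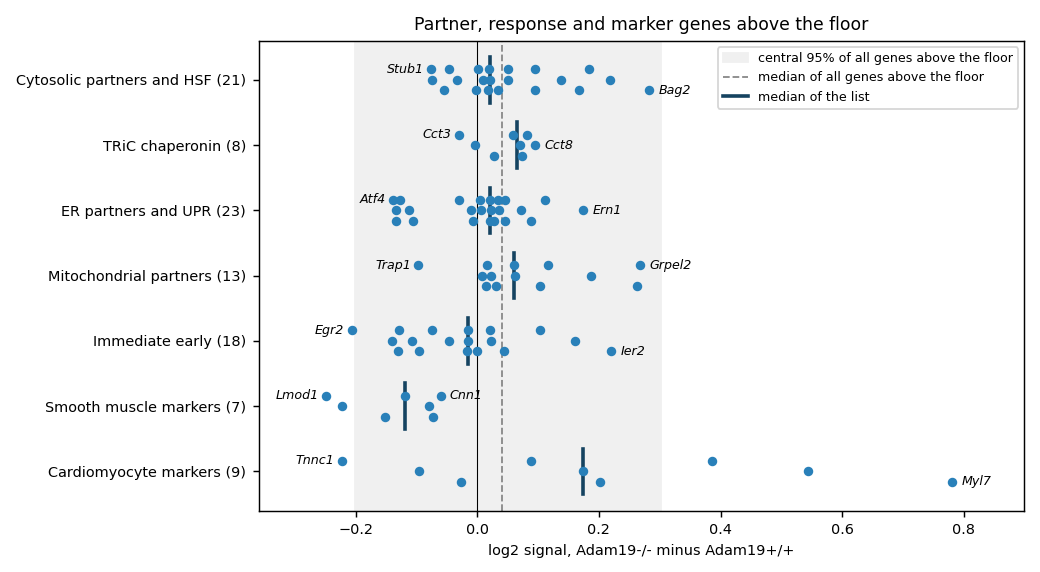
Difference in log2 signal (Adam19-/- minus Adam19+/+, horizontal axis) of partner, response and marker genes above the floor, by list, with the number of genes in brackets and a bar at the list's median. The mitochondrial partners reach 0.27 (Grpel2), with 6 of 13 below the median of all genes, whereas all 7 smooth muscle markers lie below 0.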

How the data were processed

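The values are the log2 signals deposited by the authors in a table of 28853 transcript clusters, 1 column per array. Neither the labels nor the table state the background correction, normalisation, probe summary or log base; the values, up to 14.52, were read as log2. Clusters were named through the platform's GEO annotation and, by Entrez identifier, a RefSeq table of GRCm38.p6; 21789 had 1 symbol, and those with several or none stayed out of gene-level results. The members, groups and partner lists were chosen with earlier results of these data known. Fully described genes were 17 core members, the 6 largest increases and decreases and any member past 1.2-fold, with the 3 largest of each partner list; others were chosen after their values were seen. Differences were computed without further normalisation, and a gene entered when either array passed the floor. There are no replicates, so no p-values were computed, and the number of arrays limits the precision. A check of the code added known shifts to shuffled differences of these genes, which moves a median by that shift by construction. The name rule was checked on example symbols. The floor, the choice of cluster, the alternatives and the motif search were not checked in this way. Sequences are RefSeq's; protein comparisons planned at the start were not made. Tools were Python 3.11.15, numpy 2.4.6, pandas 2.3.3, scipy 1.17.1, statsmodels 0.14.6 and matplotlib 3.10.9.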

Additional observations from a re-analysis of the deposited data

How the results depend on the processing

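Alternatives were a floor at the 75th percentile or none, quantile normalisation, centring on the median or a lowess curve, 32 added to the linear signal, the mean of a gene's clusters, and, added after the data were seen, clusters of the gene's own chromosome. With the higher floor fewer genes remained, and 0 members were 1.2-fold higher. The mitochondrial J proteins all dropped out, and the 3 mitochondrial members left, the matrix chaperones, had a median of -0.058. The 2 small heat shock proteins left had a median of -0.035, against -0.101 for the 4 in the main result. With no floor, 2 members were 1.2-fold lower, the germ-cell genes Hspb9 and Dnajc5b, and the small heat shock protein median was -0.023 over 5. Lowess centring gave 1 member 1.2-fold lower (Hspb2, -0.28) and a mitochondrial median of 0.032; the cause was not tested. Of 103 recomputed counts and group medians, 96 moved by less than the tolerance (0.05, the median gap between clusters of a gene; for counts, 1.5 times). Several group medians were themselves smaller than this tolerance, so a median could change sign and still count as unmoved. Of the 103, 13 had another sign than the main result. They were medians of all members, of the whole ER group, of the constitutive group and of the mitochondrial group. Averaging the clusters put Dnaja1 at 0.01, and the own-chromosome cluster put it at 0.23. Quantile normalisation and lowess centring gave Hspa8 a difference of 0.02 and 0.00. No paired analysis was possible because each genotype has 1 array.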
